A study of Drosophila melanogaster with 18 samples.

Results

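The genes described here encode transcription factors of heart and blood cell progenitors: Hand, midline (mid), H15, pannier (pnr), serpent (srp), u-shaped (ush), lozenge (lz), glial cells missing (gcm) and knot (kn). They are 9 of the 11981 genes with a probe set annotated to 1 gene symbol, and each was followed through its brightest probe set over all 18 arrays. All 9 had such a probe set. Only kn had a further one. Hand and mid were selected on their intensities along the passages of these cultures, so their values are given as a description with no test. The other 7 were chosen by their known roles, with earlier results of these arrays in view. The study sampled 2 Drosophila melanogaster cell lines, R7 and R3, at successive passages as each culture became established, with the stated aim of finding progenitor signatures. The labels give no genotype, tissue or cell type for either line. Both were grown in Schneider's medium with fetal bovine serum and antibiotics, with no treatment that differs between groups. R7 gave 3 late arrays (passages P16, P17 and P19), 2 intermediate arrays (P7 and P8), 1 array at P4, whose stage the labels leave between early and intermediate, and 3 early arrays (P2 in 2 replicates and P3). R3 gave 3 late arrays (P16, P17 and P19), 4 intermediate arrays (P5 to P8) and 2 early arrays (both P2). Arrays of a group are mostly successive passages of the same line and not separate cultures, so each p-value measures only the spread between passages and arrays.

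In the fly embryo, heart cells and blood progenitors arise from neighbouring mesoderm. The GATA factor Serpent and its relatives direct blood cell formation, and Pannier, another GATA factor, acts in the cardiac mesoderm. U-shaped, a zinc finger protein of the Friend of GATA family, binds GATA factors and changes what they do. Hand, a basic helix-loop-helix factor, is made in heart cells and in the lymph gland, the larval blood-forming organ, and lies downstream of GATA factors there. Midline and H15 are closely related T-box factors of the heart tube. Lozenge, a Runx factor, directs crystal cells, the blood cells that carry prophenoloxidase. Glial cells missing acts in glia and in plasmatocytes, the phagocytic blood cells, and Knot, an EBF factor, acts in the lymph gland niche and in lamellocyte formation.

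Values are array intensities on a linear scale. Values below a floor of 32 were set to 32 before any log2, and a fold against values at the floor is written "at least". Array medians were 23.2 to 30.2, and each array had 44.1% to 48.9% of its probe sets above that floor. The number of arrays limits the precision. Arrays labelled R3 P19 and R3 P2 replicate 2 stood apart from their stage. Over all tested probe sets R3 P19 correlated with R3 P2 replicate 1 at r = 0.994, but with R3 P16 and P17 at 0.939 each. R3 P2 replicate 2 correlated with R3 P5 at 0.989 and with its own replicate at 0.951. The labels were kept, and comparisons that use these arrays are also given without them. In bulk RNA, fewer cells of a type and less RNA per cell cannot be told apart.

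**Figure D1:**
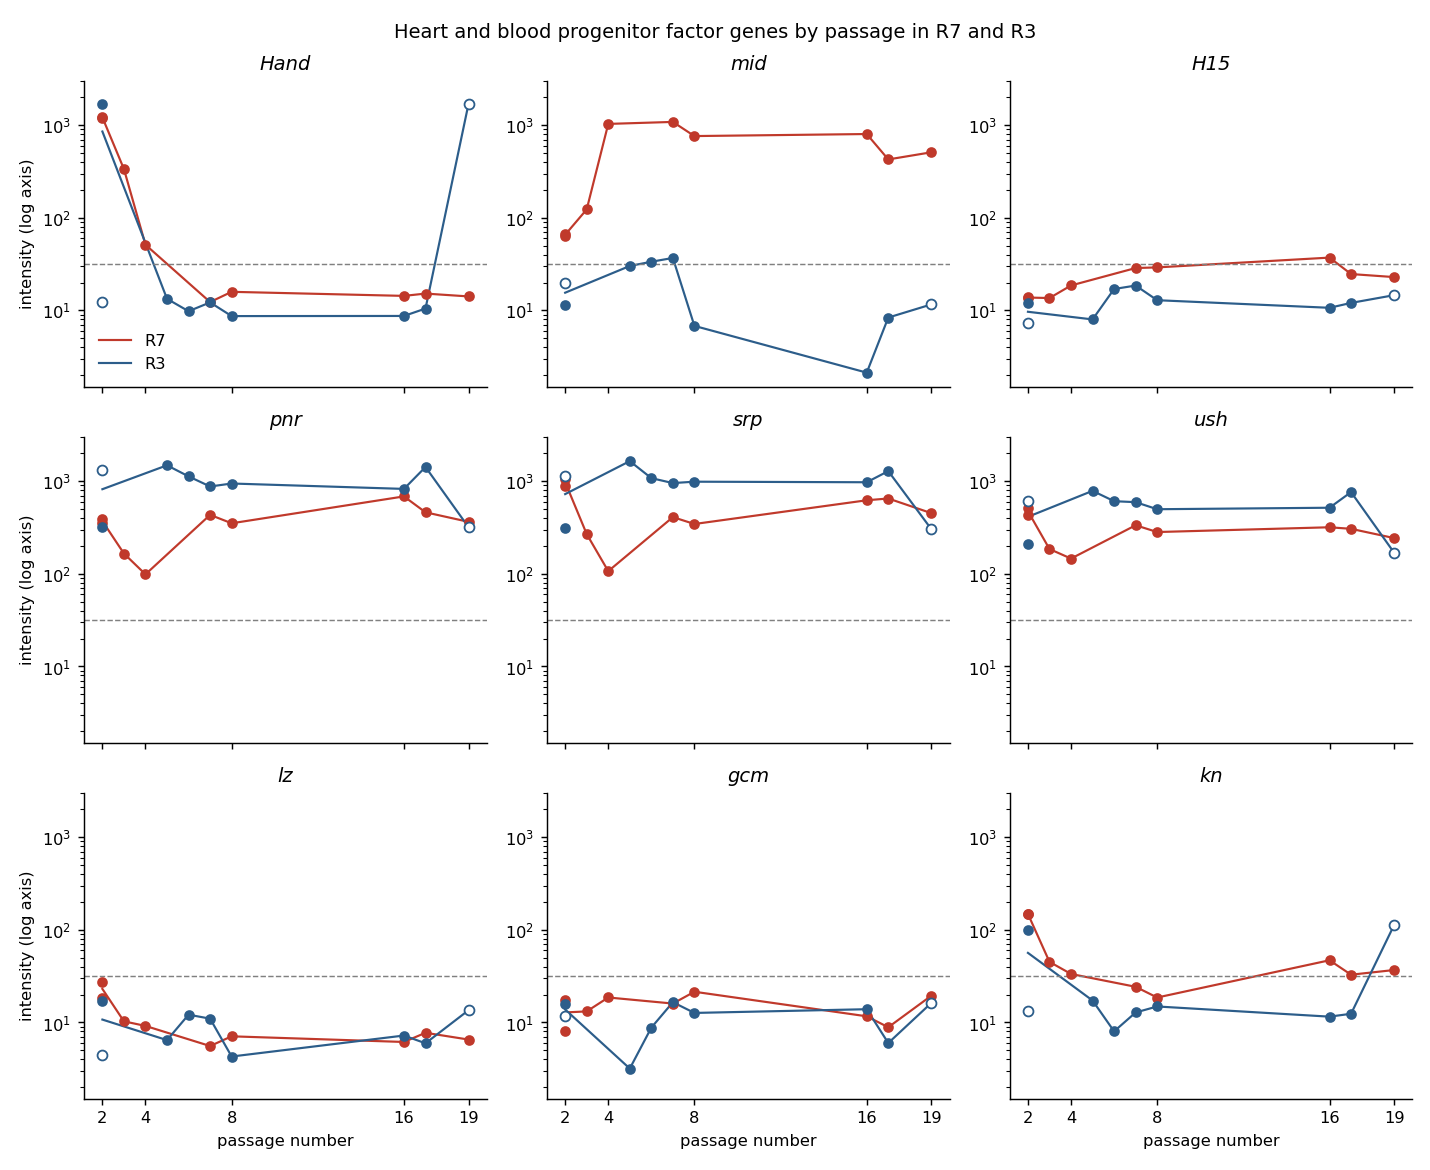
Intensity (log axis) of the 9 factor genes against passage number in R7 (red) and R3 (blue). Each point is 1 array, lines join the means per passage, open points are R3 P2 replicate 2 and R3 P19, and the dashed line is the floor of 32. Hand is low in R7 from P7 on and mid is high in R7 from P4 on, while lz and gcm stay under the floor on all 18 arrays.

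Hand was bright in the first R7 passages and at background after them. In R7 it measured 1194 and 1236 at P2, 336 at P3, 51.2 at P4, 12.3 at P7, 15.9 at P8, and 14.4, 15.2 and 14.2 at P16, P17 and P19. The signal was lower at each step from P2 to P7, and all 3 late arrays lay under the floor while all 3 early arrays lay above it. The late mean of 14.6 ± 0.554 stood against 922 ± 508 in early R7 (SD, n = 3 each), at least 24.7-fold lower. Of all tested probe sets, 19.6% were lower in late R7 with no overlap between the arrays. By P4 Hand was already 23.7-fold lower than the P2 mean of 1210, where 6.03% of probe sets were at least 2-fold lower. In R3, Hand read 1698 and 12.2 in the P2 replicates, 13.3, 9.81, 12.2 and 8.69 at P5 to P8, and 8.72, 10.5 and 1713 at P16, P17 and P19. Just 2 of the 9 R3 arrays carried signal, and these are the 2 that correlated with each other at 0.994. Without R3 P19 and R3 P2 replicate 2, R3 late arrays were at least 53.1-fold below the remaining P2 array.

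The T-box gene mid ran the other way in R7. Its intensity there was 67.0 and 64.4 at P2, 123 at P3, 1033 at P4, 1086 at P7, 764 at P8, and 803, 427 and 510 at P16, P17 and P19. Most of the difference arose between P3 and P4, an 8.38-fold step on 1 array each, and at P4 2.84% of probe sets were at least 2-fold above the P2 mean. Every later R7 array stayed above each early one. The late mean was 580 ± 198 against 84.9 ± 33.3 in early R7 (SD, n = 3 each), 6.90-fold higher, and 17.6% of tested probe sets were higher in late R7 with no overlap. In R3, mid never passed 36.9: it was 11.3 and 19.8 at P2, 30.2, 33.6, 36.9 and 6.81 at P5 to P8, and 2.13, 8.38 and 11.6 in the late arrays. R7 exceeded R3 at 6 of 6 passages sampled in both lines (P2 replicates averaged), as did 4.69% of tested probe sets. Without R3 P2 replicate 2 and R3 P19 it did so at 5 of 5, as did 6.01%. Late R7 was at least 17.5-fold above late R3, with no overlap, where 12.6% of tested probe sets were higher in this way (17.5% without R3 P19, with mid at the same bound). In R7, then, Hand was low and mid high from P4 on, while in R3 mid stayed near or under the floor on arrays with and without Hand signal.

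H15, the close relative of mid, was weak throughout. R7 measured 13.8, 13.8, 13.6 and 18.6 at P2, P2, P3 and P4, 28.7 and 29.2 at P7 and P8, and 37.2, 24.7 and 22.9 in the late arrays. R3 stayed between 7.23 and 18.6. Only R7 P16 lay above the floor of 32, so H15 was not tested at that floor. With the floor lowered to 16 it was tested. Late R7 was then at least 1.73-fold above early R7 (limma adjusted p = 0.00277) and at least 1.73-fold above late R3 (limma adjusted p = 0.00495). Early R7 and late R3 lay wholly under 16, so all their values were set to 16. That left them with no spread, which enters the shared SE behind these p-values. With early R7 and late R3 at the floor, H15 could not have been called lower in either comparison. The share of all probe sets called at a floor of 16 is not given here. On the genome mid and H15 are neighbours with no protein-coding gene between them in the RefSeq order (assembly Release 6 plus ISO1 MT). The gene on the other side of mid, CG14020, stayed at 4.86 to 19.6, under the floor on every array, and the next, CG7382, stayed at 281 to 442.

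The blood GATA gene srp, the cardiac GATA gene pnr and their cofactor gene ush were above the floor on all 18 arrays and shared a trough in R7. The gene srp measured 1060 and 895 at P2, 269 at P3, 107 at P4, 410 and 345 at P7 and P8, and 623, 651 and 452 in the late R7 arrays. P4 was 9.11-fold below the P2 mean of 978, and the late mean was 5.31-fold above P4. The gene pnr measured 386 and 356 at P2, 166 at P3, 98.8 at P4, 434 and 352 at P7 and P8, and 686, 462 and 364 late. At P4 it was 3.75-fold below the P2 mean, and its P7 and P8 mean of 393 was 3.95-fold above P4. The gene ush measured 516 and 433 at P2, 185 at P3, 146 at P4, 335 and 283 at P7 and P8, and 318, 306 and 243 late. It was 3.23-fold below the P2 mean at P4 and 2.10-fold above P4 at P7 and P8. In each of the 3 genes P3 lay between P2 and P4, and P4 was the lowest R7 array. P4 was also the lowest R7 array for 11.8% of all tested probe sets, values at the floor not counted.

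A P4 level at least 2-fold below both the P2 mean and the P7 and P8 mean was found for 53 of 7927 genes (62 of 10200 probe sets, 0.608%), and srp, pnr and ush are 3 of these 53. This way of describing the trough was chosen after seeing the values, and P4 is a single array, so no test was made. In 51 of the 53 genes the P3 array also lay between P2 and P4. Hand, by contrast, went on below its P4 level. The mid signal was near its highest at P4, and its late mean was 1.85-fold below P4.

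**Figure D2:**
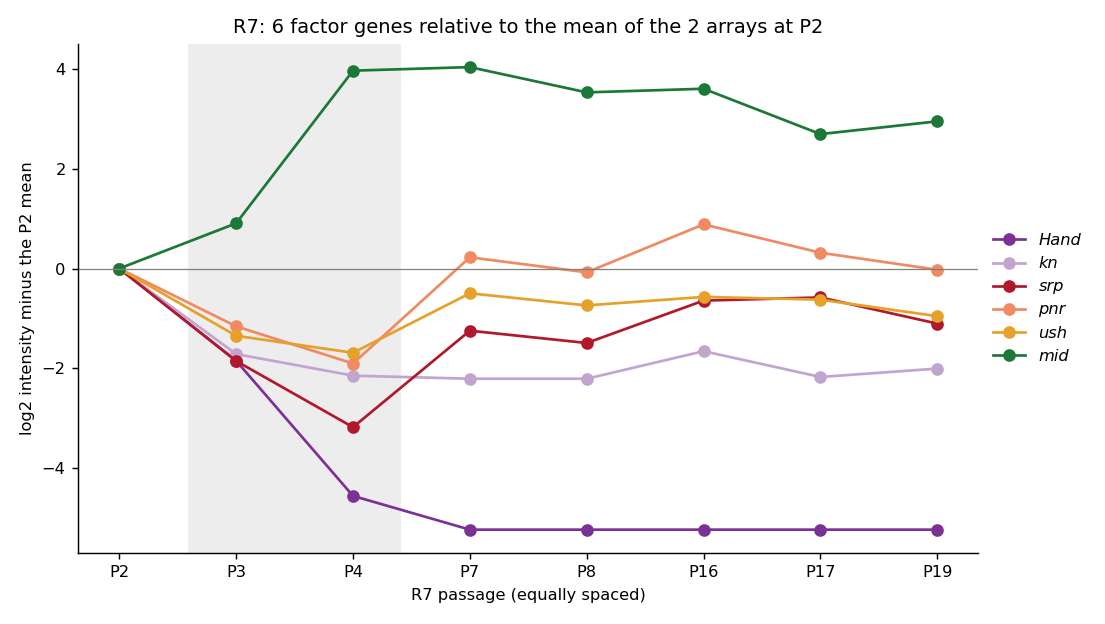
R7 passages in order (horizontal, equally spaced) against log2 intensity minus the P2 mean (values under 32 set to 32) for 6 factor genes. The shaded band covers P3 and P4, where srp, pnr and ush reach their lowest R7 values, Hand drops to 51.2, still above the floor, and mid climbs to 1033.

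In R3 the same 3 genes were lowest on the 2 arrays that carried Hand signal. The gene srp was 316 and 1137 in the P2 replicates, 1649, 1080, 955 and 989 at P5 to P8, and 975, 1286 and 304 at P16, P17 and P19. The gene pnr was 319 and 1322 at P2, 1486, 1129, 877 and 945 at P5 to P8, and 826, 1425 and 318 late. The gene ush was 212 and 614 at P2, 788, 609, 594 and 499 at P5 to P8, and 518, 764 and 169 late. For all 3, R3 P2 replicate 1 and R3 P19 were the lowest R3 arrays. These 2 arrays also differed from the other R3 arrays over all tested probe sets. R3 P2 replicate 1 correlated with R3 P19 at 0.994 and with the others at 0.943 to 0.955. How many of all probe sets split the R3 arrays this way was not counted. The 2 R3 arrays with Hand signal had srp at 316 and 304. The 2 R7 P2 arrays, also with Hand signal, had srp at 1060 and 895. For ush the values were 212 and 169 against 516 and 433. For pnr they were closer, at 319 and 318 against 386 and 356. R7 P3, with Hand at 336, had srp at 269, below both of those R3 arrays. Between the R3 P2 replicates srp differed 3.60-fold, pnr 4.15-fold and ush 2.89-fold, whereas R3 P19 and R3 P2 replicate 1 were within 1.25-fold for each.

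The EBF factor gene kn had signal on much the same arrays as Hand. In R7 it was 147 and 150 at P2, 45.1 at P3, 33.4 at P4, 24.3 and 18.6 at P7 and P8, and 47.0, 32.8 and 36.9 in the late arrays. Late R7 arrays stayed just above the floor, unlike Hand. In R3 kn was 99.5 and 13.4 at P2, 8.02 to 17.3 at P5 to P8, and 11.6, 12.4 and 113 in the late arrays, so the same 2 arrays carried it as carried Hand. Its other probe set read 1.80 to 17.6 and was above the floor on no array, so the kn values rest on 1 of 2 probe sets. The Runx gene lz read 4.29 to 27.5 and the gcm gene 3.18 to 21.5 over the 18 arrays, under the floor throughout. The highest lz values, 27.5 and 18.6, were those of the R7 P2 arrays. A probe set under the floor gives only an upper bound on signal.

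The tests compared stages within a line and the lines within a stage, in 1 limma fit of 18 arrays and 7 groups, for the 4 members that could be tested and were not singled out: srp, pnr, ush and kn. None of the 4 passed the threshold (Benjamini-Hochberg adjusted p under 0.05 over 10200 probe sets) in any of 6 comparisons. In late against early R7, where 19.9% of probe sets were called (3368 had an unadjusted p under 0.05, kn among the members), kn was 2.60-fold lower (log2 -1.38 ± 0.54 SE, adjusted p = 0.0924). The other 3 had log2 differences of 0.78 ± 0.57 (pnr, adjusted p = 0.374), -0.16 ± 0.60 (srp, 0.906) and -0.27 ± 0.52 (ush, 0.776). Means were 38.9 ± 7.30 for kn in late R7 and 114 ± 59.7 in early R7, and 575 ± 108 for srp in late R7 and 741 ± 417 in early R7 (SD, n = 3 each). Scaling arrays to equal medians put the median of all probe sets in this comparison at 0.155 (log2), where it was -0.03 as deposited. The srp difference then changed sign to 0.08. Over all alternatives the srp difference ran from -0.78 to 0.48, and that of ush from -0.72 to 0.04. Without R3 P2 replicate 2 and R3 P19, which enter through the shared spread, kn was called (adjusted p = 0.0172, against 29.4% of probe sets called). It was also called without R3 P19 alone (0.0397) and without R7 P3 (0.0203). The share of all probe sets called in these last 2 fits is not given here.

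In late against early R3 no probe set of 10200 was called (percent called 0.0, with 613 at an unadjusted p under 0.05), and the 4 members had adjusted p = 1. Late and early R3 means were 855 ± 502 (n = 3) and 726 ± 580 (n = 2) for srp, and 857 ± 554 and 820 ± 709 for pnr. Without the 2 arrays that stood apart, 10.4% of probe sets were called, and srp, pnr and ush were 3.54-fold, 3.40-fold and 2.96-fold higher in late R3 than in the single remaining P2 array, with adjusted p of 0.108, 0.0618 and 0.0727. In that fit kn was 3.11-fold lower (0.0867). These differences set 2 arrays against 1 and none was called.

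**Figure D3:**
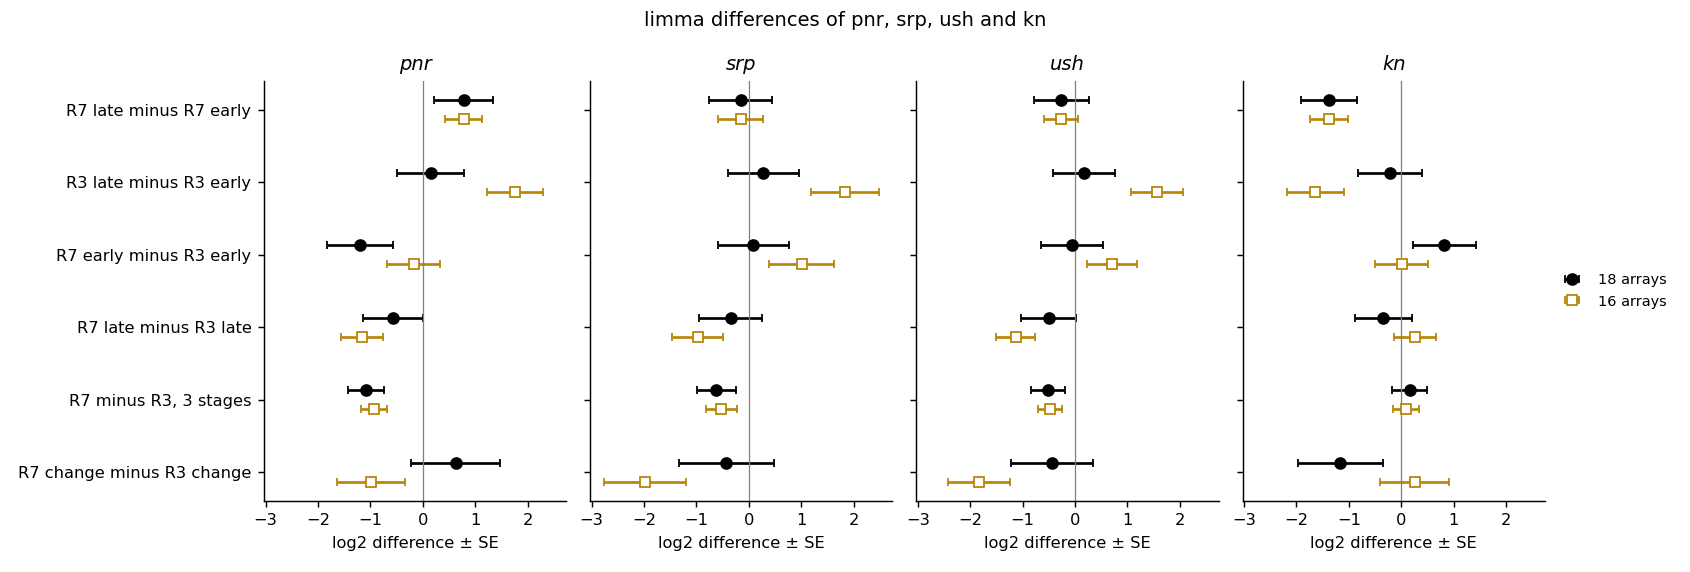
Log2 difference ± SE from limma (horizontal) of pnr, srp, ush and kn in 6 comparisons (rows), with all 18 arrays (filled circles) and without R3 P2 replicate 2 and R3 P19 (open squares, 16 arrays). The comparisons that use R3 shift most, and R3 late minus R3 early moves from near 0 to between 1.57 and 1.83 for pnr, srp and ush.

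R7 mostly measured below R3 in the GATA genes and ush. At the 6 shared passages pnr was lower in R7 at 5 and higher at 1, and srp and ush were each lower at 4 and higher at 2, while 32.4% of tested probe sets were lower in R7 at 4 or more. Without R3 P2 replicate 2 and R3 P19 each of the 3 was lower in R7 at 4 of 5 passages, as were 21.5% of probe sets at 4 or more. Over the early, intermediate and late stages pnr was 2.11-fold lower in R7 than in R3 (log2 -1.08 ± 0.35 SE, limma adjusted p = 0.0893), where 6.80% of probe sets were called. With the 2 R3 arrays left out it was 1.91-fold lower and called (adjusted p = 0.0412), as were 9.45% of probe sets. The call also appeared without R3 P19 alone (0.0223), a fit for which the share of all probe sets called is not given here. Without R3 P2 replicate 1, which left 1 early R3 array, the pnr difference was -1.42 (log2). For srp and ush the adjusted p over stages was 0.393 and 0.412. In late passages, where 7.63% of probe sets were called, the 4 members had adjusted p of 0.647 to 0.817, and in early passages, where 1.07% were called, 0.588 to 1. The change from early to late in R7 minus that in R3 (2.91% called) had adjusted p of 0.501 to 0.850. Without the 2 R3 arrays none of the 4 was called in these comparisons either, but the values moved. In late passages, with 11.1% called, ush was 2.19-fold and pnr 2.23-fold lower in R7 (adjusted p = 0.0771 and 0.0918), srp was 1.97-fold lower (0.241) and kn higher by 0.26 on the log2 scale (0.801). In early passages, with 1.91% called, adjusted p was 0.629 to 1. For the change, with 4.60% called, it was 0.123 to 0.888, and the pnr difference was -0.99 (log2) where it was 0.63 with all arrays.

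The genes these factors work with were taken as lists, which were written with earlier results of these data known. Of 15 tested genes of the cardiac programme, 8 fell and 0 rose in late against early R7, where 11.2% of all probe sets fell and 8.75% rose, with a median log2 difference of -0.73 against -0.03 over all. Those rises made up 43.9% of the calls as deposited, 71.4% under equal array medians and 64% once quantiles were matched. With either scaling, and with a floor of 16, the cardiac list had 1 rise. The T-box genes Doc1, Doc2 and Doc3, which act in cardiac mesoderm beside pnr, fell at least 9.09-fold, 6.22-fold and 1.66-fold (adjusted p = 4.57e-05, 0.000859 and 0.0166). Doc1 read 421 and 375 at P2, 156 at P3, 88.2 at P4, 55.1 and 41.7 at P7 and P8, and 14.6, 3.60 and 4.84 in late R7. The Bmp ligand gene dpp fell at least 3.04-fold (0.00105) and the pericardial matrix gene prc at least 12.5-fold (0.0316). The muscle progenitor gene Him fell 9.15-fold (0.0225), and svp and odd at least 1.85-fold and 2.06-fold (0.0338 and 0.0264). As odd was above the floor on only 2 arrays, both early R7, it could not have been called higher. The zinc finger gene zfh1 and the fibroblast growth factor receptor gene htl were not called, at 1760 and 2780 in late R7 against 1520 and 2250 in early R7. The 8 falls became 3 on leaving out the P19 array of R7 or its P2 replicate 1, and 4 on leaving out its P2 replicate 2, P16 or P17 array. Doc1, Doc2 and dpp remained called in each of these fits, for which the share of all probe sets called is not given here. The genes tin and Mef2 were not analysed here. Among relatives of the members by protein family, 4 of 6 fell (the 3 Doc genes and bi, 4.56-fold, adjusted p = 0.000769) and 0 rose, while GATAd stayed at 230 and 222 in late and early R7.

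Some blood cell genes were also lower in late R7, a comparison in which 11.2% of all probe sets fell and 8.75% rose. Of 14 plasmatocyte markers 6 fell and 0 rose (median log2 -1.30): Nplp2 37.7-fold (adjusted p = 0.00825), the surface protein gene He 23.4-fold (0.0111), the phagocytosis receptor gene NimC1 5.83-fold (0.00215), the matrix gene Ppn 5.19-fold (0.000524), Hml 4.78-fold (0.0455) and Pxn at least 3.51-fold (0.0222). The other 8 were not called, among them the collagen genes Col4a1 and vkg and the engulfment receptor gene drpr, with log2 differences of 0.17, 0.28 and 0.76. Of 4 crystal cell genes 3 fell, among them the prophenoloxidase gene PPO2 8.07-fold (0.0200), and lz was never above the floor. Of 7 lamellocyte markers 5 fell, led by atilla 20.9-fold (0.0126), and 1 rose, the kinase gene msn, 1.54-fold (0.0291). Of 14 genes of lymph gland and blood progenitor signalling 4 fell and 0 rose: Antp at least 3.13-fold, odd, Tep4 1.52-fold and dome, a receptor of the JAK/STAT pathway, 1.33-fold (adjusted p = 0.0126, 0.0264, 0.0367 and 0.0210). Of these falls, those of peb (crystal cell), ItgaPS5 (lamellocyte) and odd had signal above the floor on only 2 arrays each, all early R7. These 3 genes could not have been called higher. The signalling list held 23 genes. Of them N, Ser, Dl, Su(H), hop, hth and exd were not analysed here, and hh and ptc were under the floor on every array. Of 7 glial genes that gcm can regulate none passed. Several counts rested on single arrays. Leaving out either R7 P2 array, the P16 array or the P19 array of R7 gave 0 crystal cell falls and 1 signalling fall. The lamellocyte falls were 1 without P2 replicate 2 of R7 and 2 when its P16 array or P2 replicate 1 was left out, and the msn call was lost without any 1 of the 6 early and late R7 arrays. The plasmatocyte falls stayed between 4 and 7 over all fits with arrays left out. Without R3 P2 replicate 2 and R3 P19 the glial list had 3 falls (moody, Gs2 and alrm), the signalling list 2 rises (Pvf2 and bip1) and the plasmatocyte list 1 rise (drpr).

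**Figure D4:**
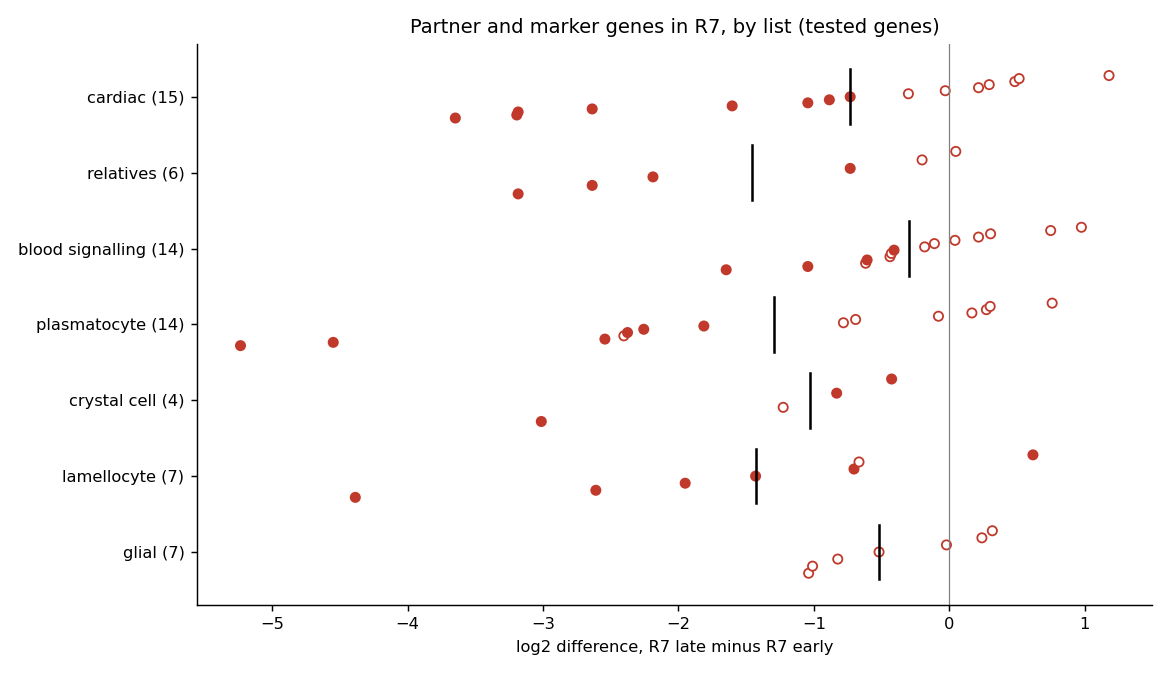
Log2 difference of late minus early R7 (horizontal) for tested genes of 7 lists (rows, number of tested genes in brackets). Filled points passed limma at adjusted p under 0.05, open points did not, vertical bars are list medians, and all 7 medians lie below 0.

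In R3 none of these lists had a called gene with all arrays. Without R3 P2 replicate 2 and R3 P19, where 3.95% of probe sets rose and 6.48% fell, the cardiac list had 1 rise (zfh1, adjusted p = 0.0330) and 3 falls (Him, dpp and prc), the plasmatocyte list 3 rises (Col4a1, vkg and drpr) and 2 falls (Pxn and Nplp2), and the signalling list 3 rises (Pvf2, Jra and zfh1) and 2 falls (ci and Antp). The glial list had 1 rise (loco) and 1 fall (alrm), and the relatives, crystal cell and lamellocyte lists had none. These calls set 2 late arrays against 1 early array, which is assumed to vary like the arrays of the other groups. In late R7 against late R3, where 5.27% of probe sets were called higher and 2.35% lower, the lists held 0 higher and 4 lower genes: Ppn 2.80-fold (adjusted p = 0.0155), Hml 6.81-fold (0.0354), dome 1.31-fold (0.0445) and the glial gene moody 1.95-fold (0.0107). Without R3 P19 the plasmatocyte list had 4 lower genes in place of 2, and the signalling list 2 in place of 1.

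The trough at R7 P4 was also seen in some blood cell markers. Of the 14 plasmatocyte markers 4 were at least 2-fold lower at P4 than at P2 and at P7 and P8 (He, NimC1, eater and Sr-CI, 28.6% of the list against 0.669% of all genes), as were 2 of 4 crystal cell genes (PPO1 and PPO2) and the receptor gene Pvr, of 14 signalling genes. None of 7 lamellocyte markers and none of 15 cardiac genes did so. The 6 relatives of the members and the 7 glial genes had none either. The phagocytosis receptor gene eater read 681 and 584 at P2, 149 at P3, 38.7 at P4, 194 and 184 at P7 and P8, and 334, 314 and 134 in late R7, a course like that of srp. PPO2 read 2247 and 2250 at P2, 389 at P3, 136 at P4, 304 and 353 at P7 and P8, and 107, 289 and 121 late, so it did not return to its P2 level. Summed over 8 plasmatocyte markers, intensity was 4440 to 11700 in early R7, 2600 at P4, 4090 to 5510 at P7 and P8 and 1710 to 3480 late, and none of the 8 was under the floor on all arrays. Over 3 crystal cell markers the sum was 593 to 3100 in early R7, 224 at P4, 551 to 783 and then 263 to 675. Sums of 6 differentiated muscle genes were 1820 to 3850 in early R7, 5370 at P4, 3510 to 5070 and then 639 to 742. The actin gene Act79B alone made up 85.9% of that sum at P4, and without it the sums were 349 to 584, 757, 453 to 580 and 375 to 478. Over 9 cardioblast and pericardial genes the sum was 644 to 2010 in early R7, 575 at P4, 356 to 366 and then 228 to 312. Over 5 fat body genes it was 305 to 1940 in early R7, 137 at P4, 90.1 to 114 and then 60.1 to 70.6, and in R3 it was 76.4 to 523 in late and 115 to 590 in early arrays (76.4 to 101 late and 590 in the 1 early array without R3 P19 and R3 P2 replicate 2). The lipoprotein gene apolpp carried most of the R7 course of this sum, at 15.6 in late R7 against 1190 in early R7. In R3 the plasmatocyte sum was 4410 to 7340, with or without those 2 arrays. The part of these cell types in the courses of srp, pnr, ush, Hand and mid was not tested.

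Likeness to each member was ranked by Pearson correlation of log2 intensity over 18 arrays among 7926 genes. The arrays share lines, successive passages and the 2 R3 arrays that stood apart, so these are descriptions. Closest to srp were Arpc3B (r = 0.968), an Arp2/3 complex subunit, CG13795 (0.960), CG9372 (0.950) and ush (0.949), which ranked 4. Closest to ush were nAChRbeta3 (0.973), LKRSDH (0.961) and srp, which ranked 3. For pnr the leaders were CG14642 (0.965), CG31370 (0.942) and CG3376 (0.939), with srp ranking 18 and ush 20. Within the 9 R7 arrays alone, srp and ush correlated at 0.932, srp and pnr at 0.805, and pnr and ush at 0.749. Hand was most like Vago (0.994), CG30151 (0.990) and CG8157 (0.990), and kn ranked 62 for it (0.944); these values rest on 6 arrays with Hand signal and 12 without. The gene kn was most like Srg1 (0.987), BomS6 (0.985) and CG12310 (0.984). For mid the leader was CG11425 (0.946), at 59.0 in late R7 against 32.8 in early R7. Over the 16 arrays without R3 P2 replicate 2 and R3 P19, Arpc3B, nAChRbeta3, CG14642, Vago and CG11425 still ranked first for srp, ush, pnr, Hand and mid, ush ranked 4 for srp and srp 3 for ush. For kn the leader was then sas (0.990), with Srg1 ranking 2, and kn ranked 86 for Hand.

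On the RefSeq gene order srp and pnr lie close together, with GATAe, a further GATA gene, as the one protein-coding gene between them. GATAe read 5.13 to 23.0 and never passed the floor, while srp and pnr were above it on all 18 arrays. On the other side of srp, Hel89B, which encodes a helicase, stayed at 316 to 434 and mor, a chromatin remodelling subunit, at 919 to 1390, without the trough. The neighbours of Hand, Ufd4 and CYLD, were 590 to 1230 and 98.4 to 158. Neighbours of ush, MED15 and cbt, were 254 to 366 and 912 to 2320, with the highest cbt value at R7 P4, where ush was lowest. Of the neighbours of kn, BEAF-32 was 629 to 828 and averaged 771 in late R7 against 726 in early R7, and hui was 17.3 to 98.2 and averaged 27.2 in late R7 against 78.5 in early R7.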

How the data were processed

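Total RNA of 18 samples was made into biotinylated cRNA by the GeneChip 3' IVT Express protocol, per the labels, and hybridised to Affymetrix arrays. The deposited series matrix holds intensity values on a linear scale, 1 per probe set and array, already summarised by the authors. The summarisation and scaling method is not given in the sources used here. Of 18952 probe sets 183 were controls. Symbols came from GEO's platform annotation (13646 probe sets with 1 symbol, 402 with several, 4721 with none) and were updated through Entrez numbers, of which 13543 were found in RefSeq.

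Values under 32 were set to 32 and taken as log2. The 10200 of 18769 non-control probe sets above 32 on at least 2 arrays entered limma (version 3.58.1, R version 4.3.3), as 7 groups over 18 arrays with lmFit, eBayes and 11 residual degrees of freedom, with Benjamini-Hochberg adjustment over all of them and a threshold of 0.05. The fit was run on simulated data with known changes and independent noise. The noise was capped below the spread of the most variable probe sets, so the fit was not checked at that spread. H15, lz and gcm did not pass the filter. Named genes were the members, the 5 genes most like each by correlation, the neighbours on the RefSeq gene order, and list members that were called. The genes named for the P4 trough and the marker sums were chosen after their values were seen. The members and lists were chosen with earlier results of these data known. Alternatives were the floors of 16 and 64, equal array medians, quantile normalization, all probe sets or 30% fewer, an intensity trend, P4 as early or intermediate, the compared arrays alone, a replicate block and each array left out. Positions in RefSeq served only to order genes, and sequences are not used here. The values without R3 P2 replicate 2 and R3 P19 of matched passages, likeness and marker sums, and the muscle sum without Act79B, were added after seeing the data.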

Additional observations from a re-analysis of the deposited data

How the results depend on the processing

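No tested member was called in any of the 6 comparisons, and the count of 0 became 1 under these alternatives. In late against early R7 it was 1 with a floor of 16 (H15), 1 without R3 P2 replicate 2 and R3 P19 (kn), and 0 to 1 with 1 array left out. In late R7 against late R3 it was 1 with a floor of 16 (H15). In both of these comparisons H15 could not have been called lower. Over 3 stages the count was 1 with a floor of 16 (H15), 1 without the 2 R3 arrays (pnr), and 0 to 1 with 1 array left out. It stayed 0 under the other alternatives run, with equal medians and quantile normalization among them. The adjusted p ranged from 0.0172 to 0.273 for kn in R7 and from 0.0215 to 0.239 for pnr over stages, and the cause was not tested. The Hand difference between the changes in R7 and in R3 reversed to 1.10 from -3.68 (log2) without the 2 R3 arrays, which change which R3 arrays carry Hand signal. Replicate numbers are shared between lines only at P2, where deviations correlated at -0.00866, so they do not pair the samples, and with a replicate block the count was 0 in each comparison it could be fitted to. The weak signals of H15, lz and gcm and 1 array at P4 limit what can be said of them.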
